A study of Homo sapiens with 6 samples.

Results

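The genes described here are 8 members of the netrin system: the UNC5 receptors UNC5A, UNC5B, UNC5C and UNC5D, the DCC family receptors DCC and NEO1, and the ligands NTN1 and NTN4. They were taken by gene symbol from 57773 listed genes. UNC5B was chosen by its rise in the siHKlincR1 libraries, so its values are given as a description with no test. The other genes are its relatives, co-receptors and ligands by name.

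Gene expression was measured by strand-specific polyA RNA sequencing of H460, an established line of human non-small-cell lung carcinoma. Cells were transfected for 48 hours with 50 nM of siRNA using Lipofectamine RNAiMAX, and there were 3 biological replicates with siNT and 3 with siHKlincR1. siNT is the ON-TARGETplus non-targeting siRNA number 1, a control with no intended transcript. siHKlincR1 is 1 siRNA, siHKlincR1_2, against HKlincR1 (AC093323.3), a long intergenic noncoding RNA, so effects of that siRNA and of the loss of its target cannot be told apart here.

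Netrins are secreted, laminin-related proteins best known for steering growing axons. DCC and neogenin (NEO1) usually mediate attraction to netrin-1, whereas the UNC5 receptors mediate repulsion, alone or together with DCC. UNC5 receptors and DCC are also called dependence receptors, because without ligand they can promote cell death, UNC5B through a death domain in its cytoplasmic part. In blood vessels, UNC5B is a receptor of endothelial tip cells.

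Because a single siRNA was sequenced, its sequence is shown first, with the places in the netrin transcripts that match its seed. The seed is bases 2 to 8 of the guide strand, and it can pair with 3′ UTRs of transcripts other than the target. Like siNT, siHKlincR1_2 was bought with the ON-TARGETplus modification. Both strands of siHKlincR1_2 are written 5′ to 3′, the capitals marking the seed in the guide and the matching bases 12 to 18 in the sense strand.
siHKlincR1_2 guide: aAGCACACgaguauacuuc
siHKlincR1_2 sense: gaaguauacucGUGUGCUu

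The letters GTGTGCT, searched on the transcript strand only, were in the 3′ UTRs of 5 of the 8 genes (UNC5A, UNC5B, UNC5D, DCC and NTN1) and in those of neither UNC5C, NEO1 nor NTN4. Of 10764 3′ UTRs of tested genes, 14.0% held them. The share with a match was higher among longer 3′ UTRs. Among 3′ UTRs within 20% of its own length, the share with a match was 25.2% for UNC5B (3587 bases), 27.6% for NTN1 (4032 bases), 34.9% for UNC5D (5977 bases), 32.5% for DCC (5246 bases) and 7.59% for UNC5A (1012 bases). For the genes without a match, that share was 38.1% for UNC5C (6730 bases), 17.3% for NEO1 (2509 bases) and 9.53% for NTN4 (1279 bases). The windows below are GRCh37, plus strand, with GTGTGCT in capitals, and lie at chr10:73062119-73062148 (UNC5B), chr17:9145659-9145688 (NTN1), chr5:176307424-176307453 (UNC5A), and chr18:51061387-51061416 and chr18:51061867-51061896 (DCC).
UNC5B 3′ UTR: cgagcgtgtgtGTGTGCTcctctgcgtccc
NTN1 3′ UTR: tgcccagtgtgGTGTGCTgggcgccatcag
UNC5A 3′ UTR: acgcatgcctcGTGTGCTcatctcacacac
DCC 3′ UTR, first: gggatctcactGTGTGCTgaacatgtattt
DCC 3′ UTR, second: acagattgttaGTGTGCTagtgataagttt

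The longest unbroken match to the siRNA was 10 bases in UNC5A, 8 in UNC5D and 7 in UNC5B, NTN1 and both DCC windows. A match of letters is a description and not a measured site. Of the genes that hold it, UNC5B was higher in 2 siHKlincR1 libraries and NTN1 was lower in all 3. UNC5A and UNC5D were lower in all 3 pairs of same-numbered libraries, with overlapping groups. DCC had too few reads to compare. NEO1, lower in all 3 siHKlincR1 libraries, holds none. Whether the match bears on any of these values was not tested.

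Expression is given as RPKM, the reads of a gene scaled to the length of its model and to the total of its library. The RPKM values could be worked back to whole reads, with totals of 24980280 to 30521000 reads per library, and the reads behind a value are given beside it. HKlincR1 (ENSG00000170846) had 232, 245 and 221 reads with siNT and 37, 42 and 27 reads with siHKlincR1, so the target was reduced in all 3 pairs of same-numbered libraries and was lowest in the third siHKlincR1 library. Of the epithelial markers, KRT8, KRT18 and KRT19 were present at 28.1 to 88.5 RPKM in every library, whereas CDH1 was at or near 0 and EPCAM did not exceed 0.110 RPKM. All 4 lung epithelial markers (NKX2-1, SFTPB, SFTPC, SCGB1A1) had at most 3 reads in any library. The same was true of the 4 endothelial markers found in the table (CDH5, VWF, KDR, TEK), whose summed level was 0.00604 to 0.0217 RPKM with siNT and 0.00561 to 0.0212 RPKM with siHKlincR1. Of the 5 neural markers, STMN2 was at 0 and ELAVL4 near 0, while MAP2, a microtubule protein of neurons, was at 1.84, 1.94 and 1.49 RPKM with siNT and at 2.26, 2.81 and 2.24 RPKM with siHKlincR1 (adjusted p = 0.236, limma). SNAP25 averaged 1.599 RPKM with siNT and 1.562 RPKM with siHKlincR1 (log2 fold change -0.055, adjusted p = 0.893, limma). SYP averaged 0.181 RPKM with siNT and 0.240 RPKM with siHKlincR1. Of the neural markers, only MAP2 had all siHKlincR1 libraries above all siNT libraries. Over the 20701 genes averaging 0.1 RPKM or more, 9.07% did so. The summed level of the neural list was 3.20 to 3.80 RPKM with siNT and 3.68 to 4.72 RPKM with siHKlincR1. The part of the neural list in the netrin values was not tested. The leukocyte list summed to at most 0.196 RPKM. In these bulk libraries, fewer cells that express a gene and less RNA of it per cell cannot be told apart.

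UNC5B (ENSG00000107731, chr10:72972327-73062621 on the plus strand of GRCh37, 17 exons) encodes the netrin receptor with the largest difference. It was at 0.932, 0.833 and 0.626 RPKM in siNT libraries 1, 2 and 3, from 177, 174 and 107 reads. It was at 5.20, 9.43 and 0.659 RPKM in siHKlincR1 libraries 1, 2 and 3, from 1013, 1866 and 135 reads. The first and second siHKlincR1 libraries thus stood far above every siNT library, while the third lay within the siNT range and the groups overlapped.

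The UNC5B means were 0.797 ± 0.156 RPKM (SD, n = 3) with siNT and 5.10 ± 4.39 RPKM (SD, n = 3) with siHKlincR1, a ratio of 6.39. Within same-numbered pairs, the ratio of siHKlincR1 to siNT was 5.58 (95% interval 4.75 to 6.59), 11.3 (9.68 to 13.3) and 1.05 (0.811 to 1.37). These intervals are exact binomial intervals on the reads. The reads carry no molecular identifiers, so the intervals cover counting error only. The log2 fold change of UNC5B on the log2(RPKM + 0.1) scale was 1.93 with all libraries, 3.00 without the third siHKlincR1 library and 1.18 without the second. The third siHKlincR1 library had the lowest ratio of HKlincR1 among the pairs, 0.102, against 0.156 and 0.181 in the first and second. Whether anything that sets the third library apart bears on UNC5B was not tested.

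**Figure D1:**
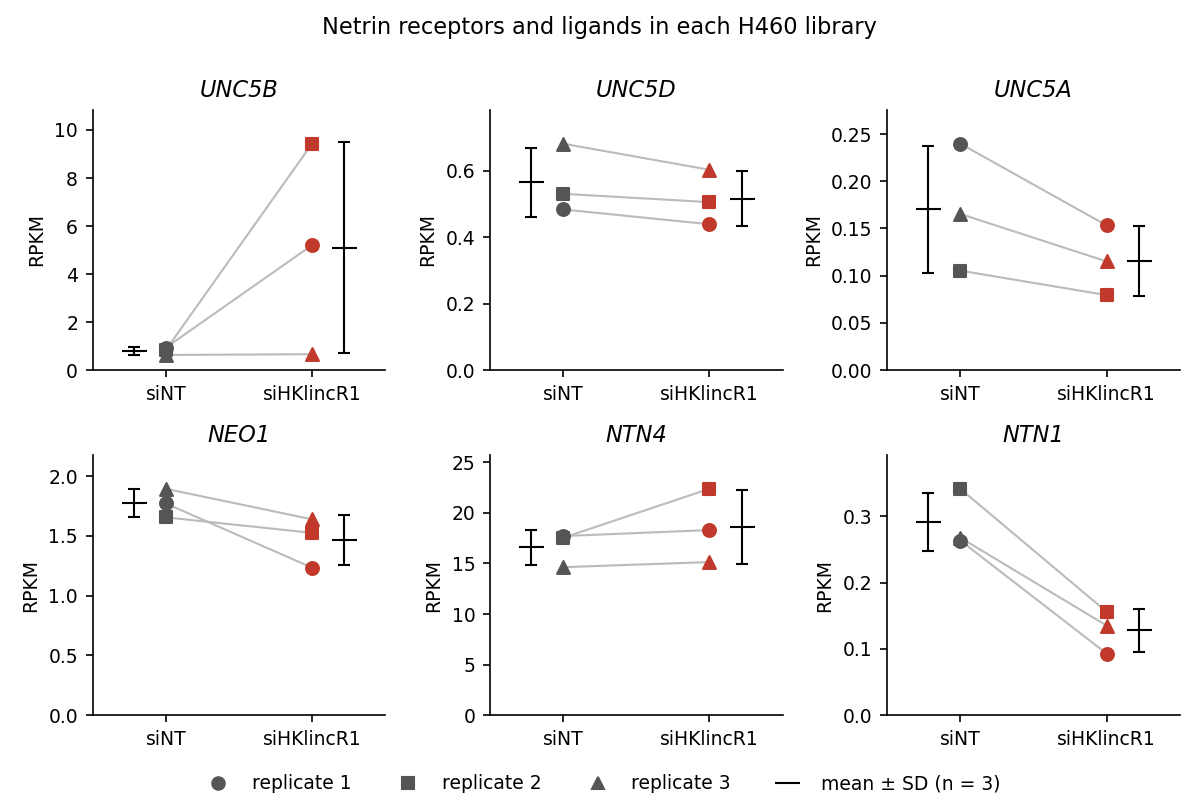
Expression in RPKM (vertical axes, each from 0) of the 6 netrin genes averaging 0.1 RPKM or more, in siNT (grey) and siHKlincR1 (red) libraries, with lines joining same-numbered libraries and bars showing the mean ± SD (n = 3). UNC5B was at 5.20 and 9.43 RPKM in 2 siHKlincR1 libraries and at 0.659 RPKM in the third, while NTN1 was lower in siHKlincR1 in each pair.

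UNC5B was picked as the largest rise, and its neighbours show what that rests on. Among the 13401 genes averaging 1 RPKM or more, it ranked 1 by the ratio of group means and 3 by the log2 fold change. By log2 fold change it stood behind the mitochondrial tRNA gene MT-TC, at 2.28, and the gene ENSG00000117289, at 2.07. It stood ahead of the noncoding RNA LINC02806, at 1.63. MT-TC was at 1.64, 0 and 1.21 RPKM with siNT and at 3.73, 2.10 and 3.04 RPKM with siHKlincR1. Its ratio of group means was 3.11, and its log2 fold change rests in part on the siNT library at 0. ENSG00000117289, which matched no symbol, was at 31.8, 29.4 and 9.10 RPKM with siNT and at 132, 134 and 36.5 RPKM with siHKlincR1. LINC02806 was at 0.939, 0.871 and 0.167 RPKM with siNT and at 2.73, 3.05 and 0.801 RPKM with siHKlincR1. In both of these genes the third library of each group was the lowest of its group, but, unlike in UNC5B, the third siHKlincR1 library was still well above the third siNT library.

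The first and second siHKlincR1 libraries shared more large differences with each other than either did with the third. The genes at least 2-fold above every siNT library numbered 31 in libraries 1 and 2, UNC5B among them, 6 in libraries 1 and 3, and 5 in libraries 2 and 3. Those at least 2-fold below every siNT library numbered 35, 14 and 9 in the same order. Across 15451 genes, which are not independent replicates, the changes in pairs 1 and 2 had a Pearson r of 0.404, against 0.203 for pairs 1 and 3 and 0.191 for pairs 2 and 3.

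The 5 genes averaging 1 RPKM or more whose log2(RPKM + 0.1) followed that of UNC5B most closely over the 6 libraries were ERVK3-1, RBCK1, EIF4A1, MARVELD2 and KCTD15. Their Pearson r with UNC5B lay between 0.996 and 1.000, a description of profiles that share the same 6 libraries, and they were picked as the closest of the 13401 genes. RBCK1, a subunit of the linear ubiquitin ligase complex, was at 24.5, 22.6 and 21.2 RPKM with siNT and at 39.2, 47.6 and 22.0 RPKM with siHKlincR1. MARVELD2, which encodes the tight junction protein tricellulin, was at 2.35, 2.27 and 2.17 RPKM with siNT and at 3.41, 4.14 and 2.26 RPKM with siHKlincR1. Both had the UNC5B order, with the second siHKlincR1 library highest and the third beside the siNT libraries. The size was far smaller, with log2 fold changes from 0.17 for ERVK3-1 to 0.60 for RBCK1, against 1.93 for UNC5B.

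The other UNC5 receptors did not share this pattern. UNC5D (ENSG00000156687, chr8:35092993-35654068, plus strand) encodes an UNC5 receptor that also binds FLRT2. It was at 0.483, 0.530 and 0.681 RPKM with siNT and at 0.439, 0.505 and 0.602 RPKM with siHKlincR1, from 135 to 195 reads per library. Each siHKlincR1 library was slightly below its same-numbered siNT library, but the groups overlapped. The log2 fold change was -0.11 (SE 0.24), with an adjusted p of 0.835 by limma over all 15451 tested genes, and it was 0.013 without the third siNT library. In the first and second siHKlincR1 libraries, where UNC5B was at 5.20 and 9.43 RPKM, UNC5D was at 0.439 and 0.505 RPKM.

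UNC5A (ENSG00000113763, chr5:176237520-176307899, plus strand), a receptor known mainly from the nervous system, was close to the limit of these libraries. It was at 0.240, 0.105 and 0.165 RPKM with siNT and at 0.153, 0.0794 and 0.115 RPKM with siHKlincR1, from only 10 to 29 reads per library. The pair ratios were 0.639, 0.754 and 0.696, and all of their 95% intervals included 1. UNC5A was under the mean of 0.5 RPKM required for testing. It was lower with siHKlincR1 in all 3 pairs, by less than the counting error of each pair. UNC5C (ENSG00000182168, chr4:96083655-96470357, minus strand), another repulsive netrin receptor, had 0 reads in all 6 libraries, which allows up to 3 reads in each.

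Of the DCC family, DCC (ENSG00000187323, chr18:49866567-51062269, plus strand), the netrin-1 receptor whose loss in colorectal cancer gave it its name, had 0, 1 and 1 reads with siNT and 0, 2 and 2 reads with siHKlincR1. Both groups were at or under 3 reads, so no fold change is given. NEO1 (ENSG00000067141, chr15:73344051-73597546, plus strand), which encodes neogenin, a receptor for netrins and for repulsive guidance molecules, was by contrast plainly expressed. It was at 1.77, 1.65 and 1.89 RPKM with siNT and at 1.23, 1.52 and 1.64 RPKM with siHKlincR1, from 285 to 410 reads per library. All 3 siHKlincR1 libraries were below all 3 siNT libraries, although the highest of the one and the lowest of the other, 1.64 and 1.65 RPKM, nearly touched.

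The NEO1 means were 1.77 ± 0.119 RPKM and 1.47 ± 0.209 RPKM (SD, n = 3 per group). The pair ratios were 0.697 (95% interval 0.596 to 0.813), 0.921 (0.797 to 1.06) and 0.865 (0.750 to 0.998), the first pair being the furthest from 1. The log2 fold change was -0.27 (SE 0.14) and did not pass the test, with an adjusted p of 0.374 by limma. It ranged from -0.35 without the third siHKlincR1 library to -0.15 without the first. The exact two-sided permutation p was 0.1, the smallest that 3 libraries against 3 allow.

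NTN1 (ENSG00000065320, chr17:8924827-9147317, plus strand) encodes netrin-1, the ligand of DCC, neogenin and the UNC5 receptors. It was at 0.263, 0.341 and 0.268 RPKM with siNT, from 47, 67 and 43 reads. It was at 0.0929, 0.156 and 0.135 RPKM with siHKlincR1, from 17, 29 and 26 reads. All siHKlincR1 libraries, the third included, were below all siNT libraries, and the groups did not overlap.

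The NTN1 means were 0.291 ± 0.0438 RPKM and 0.128 ± 0.0321 RPKM (SD, n = 3 per group), a difference of -56.0%. The pair ratios were 0.353 (95% interval 0.190 to 0.626), 0.457 (0.285 to 0.716) and 0.505 (0.298 to 0.840), and every interval was below 1. NTN1 was under the mean of 0.5 RPKM required for testing. In a limma fit with no such filter its log2 fold change of -0.78 had an unadjusted p of 0.0125 and an adjusted p of 0.360, and so did not pass the test. The exact two-sided permutation p was 0.1, again the smallest possible. Without the third siHKlincR1 library the log2 fold change was -0.81, so, unlike that of UNC5B, it barely depended on that library.

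NTN4 (ENSG00000074527, chr12:96051583-96184967, minus strand) encodes netrin-4, a basement membrane protein that binds laminin. It was the most abundant of the 8 genes by RPKM, and with siNT it was above 89.4% of all genes detected. It was at 17.7, 17.5 and 14.6 RPKM with siNT and at 18.3, 22.4 and 15.1 RPKM with siHKlincR1, from 1522 to 2696 reads per library. Each siHKlincR1 library was above its same-numbered siNT library, with ratios of 1.03, 1.28 and 1.03, but the groups overlapped. The log2 fold change was 0.15 (SE 0.15) with an adjusted p of 0.630 by limma.

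**Figure D2:**
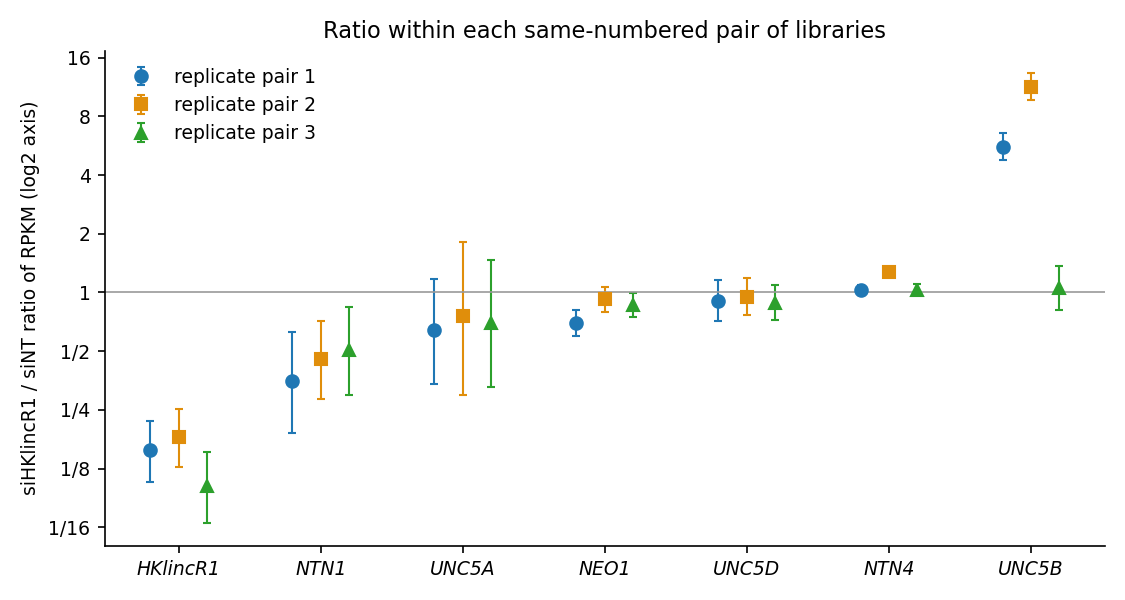
Ratio of siHKlincR1 to siNT RPKM (log2 axis) in each of the 3 same-numbered pairs for HKlincR1 and 6 netrin genes, with bars for the exact 95% interval of the reads (counting error only). UNC5B was at 5.58 and 11.3 in pairs 1 and 2 and at 1.05 in pair 3, whereas NTN1 was between 0.353 and 0.505 in all pairs.

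With siNT, the order of RPKM levels was NTN4, NEO1, UNC5B, UNC5D, NTN1, UNC5A, DCC and UNC5C, where only UNC5B and UNC5D, and DCC and UNC5C, overlapped with their neighbour over the libraries. With siHKlincR1, UNC5B came second, and its range of 0.659 to 9.43 RPKM overlapped that of NEO1. NTN1 and UNC5A, which were separate with siNT, overlapped with siHKlincR1. The H460 cells thus had more NTN4 than NTN1 transcript per length of gene model in every library, and NEO1 rather than DCC as their DCC family receptor.

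Read as a family, 4 of the 8 genes (UNC5B, UNC5D, NEO1 and NTN4) were above the filter and the other 4 below it. Leaving out UNC5B, for which no test is given, 0 of the 3 tested genes passed an adjusted p of 0.05 and a fold change of 1.5 by limma, and at an unadjusted p under 0.05 the count was also 0. Over all 15451 tested genes, the same fit called 55 lower (0.356%) and 1 higher (0.00647%). With a replicate block added, limma called 125 lower (0.809%) and 79 higher (0.511%), with 0 of those 3 genes among them. Of the 6 genes averaging 0.1 RPKM or more, 2 (NEO1 and NTN1) had all siHKlincR1 libraries below all siNT libraries, against 10.7% of the 20701 genes at that level. None had them all above, UNC5B included, against 9.07% of those genes.

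**Figure D3:**
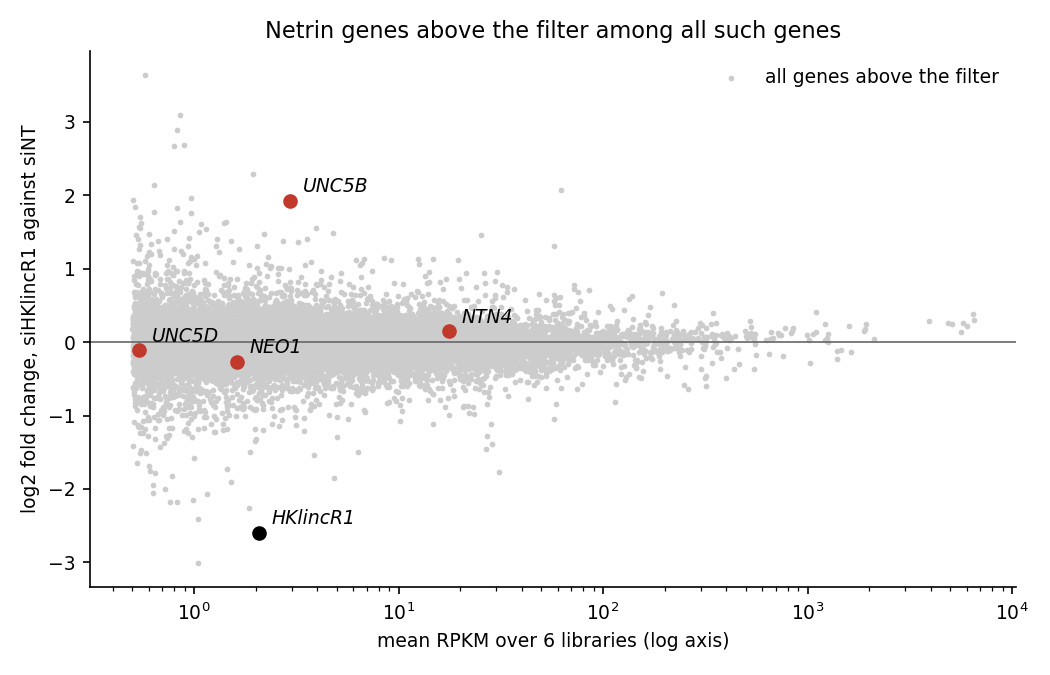
Log2 fold change of siHKlincR1 against siNT (vertical axis, on log2(RPKM + 0.1)) against the mean RPKM over the 6 libraries (log axis) for the 15451 genes above the filter in grey, the 4 netrin genes among them in red and HKlincR1 in black. UNC5B, at 1.93, lies at the upper edge of genes of its level, whereas UNC5D, NEO1 and NTN4 lie within the bulk.

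The wider pathway was followed with 86 genes in 6 lists, of which 52 were expressed highly enough to be tested. By limma 0 of them were called in either direction, also with the replicate block and with limma voom on the reads. At an unadjusted p under 0.05, 10 of the 52 passed, 9 lower and 1 higher, against 16.2% of all tested genes. That share takes both directions together, so it gives no background for the split by direction. The median log2 fold change of the 52 genes was -0.032, against 0.0011 over all tested genes.

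Of the other netrin ligands and binding partners, 7 genes were listed and only MCAM, which encodes a cell adhesion molecule reported to bind netrin-1, was tested. It was at 0.743, 0.768 and 1.05 RPKM with siNT and at 0.369, 0.401 and 0.676 RPKM with siHKlincR1. Its groups did not overlap, and its log2 fold change of -0.73 had an adjusted p of 0.269 by limma. The remaining ligands of the list, NTN3, NTN5, NTNG1 and NTNG2, and the receptors DSCAM and DSCAML1 were all below 0.0772 RPKM. COL1A1, the one marker of the fibroblast list above the filter, was also lower with siHKlincR1. The summed level of that list was 0.998 to 1.23 RPKM with siNT and 0.422 to 0.780 RPKM with siHKlincR1. COL1A2 did not exceed 0.0126 RPKM and DCN did not exceed 0.00413 RPKM, so that sum was nearly all COL1A1. The part of the fibroblast list in the MCAM values was not tested.

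Of 8 neogenin ligands and co-receptors, 4 were tested and their median log2 fold change was 0.0025. ACVR2A, an activin type II receptor, had a log2 fold change of 0.11 (adjusted p = 0.802, limma) and BMPR2, the type II BMP receptor, had one of -0.10 (adjusted p = 0.684, limma). The repulsive guidance molecule gene RGMB, named after its values were seen, was at 9.11, 9.50 and 6.63 RPKM with siNT and at 9.50, 10.0 and 7.03 RPKM with siHKlincR1. H460 cells therefore held transcript of both neogenin and one of its ligands in every library, with no difference between groups that passed the test.

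FLRT proteins bind UNC5 receptors and latrophilins at the cell surface, and 4 of the 6 listed genes were tested. FLRT1 was at 0.447, 0.340 and 0.0304 RPKM with siNT and at 0.997, 1.72 and 0.152 RPKM with siHKlincR1, higher in siHKlincR1 in every pair. In each group the third library was the lowest, the groups overlapped, and its log2 fold change of 1.34 had an adjusted p of 0.445 by limma. The latrophilin gene ADGRL2 was at 5.18, 5.73 and 5.38 RPKM with siNT and at 4.06, 3.90 and 5.01 RPKM with siHKlincR1 (log2 fold change -0.33, adjusted p = 0.249, limma).

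The intracellular signalling list held 27 genes, of which 23 were tested, 10 in the higher and 13 in the lower direction. DAPK1, the death-associated kinase linked to UNC5B, was at 0.0201 to 0.0438 RPKM and was not tested. Among the phosphatase genes, PPP2R1B, a scaffold subunit of PP2A, was at 7.03, 7.55 and 7.85 RPKM with siNT and at 5.45, 4.77 and 7.10 RPKM with siHKlincR1 (log2 fold change -0.39, adjusted p = 0.273, limma). CIP2A, an inhibitor of PP2A, was at 8.68, 9.04 and 8.96 RPKM with siNT and at 6.99, 5.77 and 8.79 RPKM with siHKlincR1 (log2 fold change -0.33, adjusted p = 0.32, limma). In both, the second siHKlincR1 library was the lowest and the third was near the siNT libraries.

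Of 12 dependence receptor genes outside the netrin family, 6 were tested. NOTCH3, a Notch receptor, was at 7.35, 7.47 and 7.06 RPKM with siNT and at 5.998, 5.48 and 6.40 RPKM with siHKlincR1. Its groups did not overlap, and its log2 fold change of -0.29 had an adjusted p of 0.201 by limma. INSR, the insulin receptor, had a log2 fold change of -0.12 (adjusted p = 0.772, limma).

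Of 26 other guidance receptors, 14 were tested, 10 in the lower and 4 in the higher direction. EPHB2, a receptor for B-type ephrins, was at 0.869, 0.878 and 1.24 RPKM with siNT and at 0.538, 0.605 and 0.664 RPKM with siHKlincR1. Its groups did not overlap, and its log2 fold change of -0.63 had an adjusted p of 0.237 by limma. ROBO3, a receptor of the SLIT receptor family, was at 1.59, 1.38 and 1.28 RPKM with siNT and at 2.63, 3.04 and 1.23 RPKM with siHKlincR1, so that 2 siHKlincR1 libraries were above every siNT library and the third was just below all of them. Its log2 fold change of 0.58 had an adjusted p of 0.385 by limma, and without the third siHKlincR1 library, an alternative chosen after seeing the data, it was 0.95 with an adjusted p of 0.0284. That fit called 314 genes lower (2.03%) and 204 higher (1.32%) over all 15451, so 1 of the 52 pathway genes is near the background.

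Other guidance receptors of this list, named after their values were seen, differed in both directions without passing the test. The plexin genes PLXNA3 and PLXND1, which encode semaphorin receptors, had all siHKlincR1 libraries below all siNT libraries, with log2 fold changes of -0.48 and -0.37 (adjusted p = 0.244 and 0.222, limma). EPHA2, a receptor for A-type ephrins, was at 29.2, 29.8 and 29.5 RPKM with siNT and at 43.7, 42.4 and 29.98 RPKM with siHKlincR1 (log2 fold change 0.37, adjusted p = 0.284, limma). NRP1, the semaphorin and VEGF co-receptor neuropilin-1, was at 5.12, 5.41 and 4.91 RPKM with siNT and at 6.33, 8.33 and 4.72 RPKM with siHKlincR1 (log2 fold change 0.29, adjusted p = 0.468, limma). In EPHA2 and NRP1, the first and second siHKlincR1 libraries were the high ones. The EPHA2 groups did not overlap, with the third siHKlincR1 library just above all siNT libraries. Over the 20701 genes averaging 0.1 RPKM or more, 10.7% had all siHKlincR1 libraries below all siNT libraries and 9.07% had them all above.

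**Figure D4:**
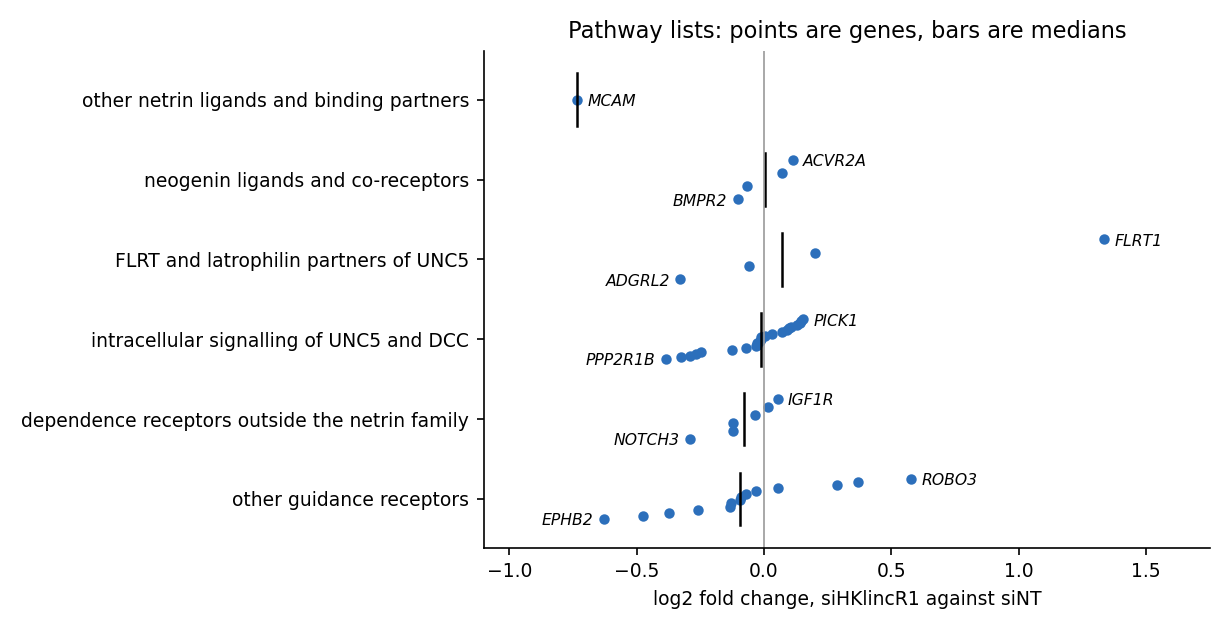
Log2 fold change of siHKlincR1 against siNT (horizontal axis, on log2(RPKM + 0.1)) of the 52 tested genes of the 6 pathway lists, 1 point per gene, with a bar at each list's median. MCAM at -0.73, EPHB2 at -0.63, ROBO3 at 0.58 and FLRT1 at 1.34 lie furthest out, and 0 of the 52 passed the test.

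Several of the genes share their position with others. UNC5B-AS1 lies within the UNC5B locus on the opposite strand, overlaps no UNC5B exon and had at most 2 reads in any library. PGAM1P5 overlaps 1899 exonic bases of NTN4 on the opposite strand and had at most 6 reads. The pseudogene LSM12P1, on the opposite strand within UNC5D, had up to 1609 reads but overlaps no UNC5D exon. Whether the counting used strand is not given in the sources used here, so reads of such overlaps are uncertain.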

How the data were processed

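PolyA RNA-seq of 6 H460 libraries (3 siNT, 3 siHKlincR1) was analysed. The authors counted reads per Ensembl gene model on hg19 (GRCh37) and deposited RPKM values, and the submitters' processing notes name CASAVA 1.8.2 and featureCounts. The aligner and use of strand are not given in the sources used here. All 152380 nonzero RPKM values were whole reads within 0.001 once library totals were worked back.

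The 15451 genes averaging 0.5 RPKM or more were tested on log2(RPKM + 0.1), which understates changes of low genes, with limma 3.58.1 in R 4.3.3 (eBayes with trend, Benjamini-Hochberg over all tested genes). Calls needed a fold change over 1.5 and an adjusted p below 0.05. P-values rest on the spread between these 3 biological replicates per group, which limma moderates over all tested genes. The steps were tested on simulated data. In the simulation for the limma fit all libraries had the same spread, so it does not cover a library that stands apart.

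Members and lists were chosen with earlier results of these data known. The named genes were the members, HKlincR1, up to 2 tested genes per pathway list with the largest absolute log2 fold change (and any called), the 3 neighbours of UNC5B in log2 fold change and the 5 most similar profiles. Libraries were paired by replicate number, which is all that the labels used here give. Same-numbered libraries deviated together weakly (r = 0.142, 0.137 and 0.266, against -0.209 to 0.113 for other pairs). P-values of single genes come from the fit without pairing, except where alternatives are named. The paired fit, with a replicate block, called 125 genes lower and 79 higher. Alternatives were other pseudocounts, filters and scaling, no trend, the block, limma voom on the reads, and leaving out each library. Matches were searched in 3′ UTRs of canonical GENCODE transcripts on GRCh37.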

Additional observations from a re-analysis of the deposited data

How the results depend on the processing

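Under each alternative run on the netrin genes, UNC5B stayed higher, with a log2 fold change of 1.18 to 3.00 when single libraries were left out. UNC5B was chosen by its rise in these same libraries, so this is a description and no support for the rise. Of UNC5D, NEO1 and NTN4, 0 passed the test under any alternative. Their adjusted p by limma ranged over 0.636 to 0.989 (UNC5D), 0.170 to 0.721 (NEO1) and 0.183 to 0.987 (NTN4). UNC5D changed sign without the third siNT library (0.013, range -0.21 to 0.013 over left-out libraries). NTN1 had a log2 fold change of -1.14 with a pseudocount of 0.01 and -0.19 with 1, against -0.78 with 0.1. The number of genes called lower, 55, became 34 with no filter, 16 without the trend, 125 with the replicate block, 87 with limma voom, and 7 to 314 with a library left out. The number called higher, 1, became 12, 79 and 2 with no filter, the block and limma voom, 0 with a pseudocount of 0.01, and 0 to 204 with a library left out. The highest of both came without the third siHKlincR1 library, and the cause was not tested. The block changed no call of a netrin or pathway gene. Pathway genes called, 0, became 1 (ROBO3) without the third siHKlincR1 library and stayed at 0 without any other (range 0 to 1). UNC5C and DCC had too few reads to compare.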
